A study of Rattus norvegicus with 10 samples.

Results

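The genes for the fibrillar collagens of scar tissue and for the proteins that fold, bind and crosslink them were followed in whole cirrhotic liver: the collagen chains Col1a1, Col1a2, Col3a1, Col5a1 and Col5a2, the procollagen chaperone Serpinh1, the collagen-binding protein Sparc and the lysyl oxidases Lox, Loxl1 and Loxl2. They were listed by name, and all 10 were measured among 14217 genes, each by its probe set with a single gene symbol and the highest variance over the 10 arrays. Fibrillar collagens are secreted as procollagen triple helices, trimmed outside the cell and packed into fibrils, in which lysyl oxidases oxidize lysine side chains so that neighbouring molecules become covalently linked. In the cirrhotic liver these fibrils fill the septa around the regenerating nodules, and activated hepatic stellate cells and portal fibroblasts are their main known source.

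The samples were livers of male Wistar rats with cirrhosis induced by inhaled CCl4, a hepatotoxin. CVX-060, a binder of angiopoietin 2 given in the study to activate the receptor Tie2, was injected into the tail vein of 5 rats in weekly doses of 10 mg/kg over 4 weeks, and 5 further cirrhotic rats received weekly vehicle. All 10 rats had received CCl4, so no healthy liver enters these comparisons, and RNA came from frozen whole liver, so each value is an average over all its cells. In bulk tissue, fewer cells of a type and less RNA per cell cannot be told apart. On the first principal component, CVX-060 rat 5 (35.5) and vehicle rat 2 (34.5) stood apart from the other 8 rats (-26.2 to 9.74), and the mean correlations, the gene lists and the genes most like the 10 are also given without them. The study kept only some rats of each group after quality control and did not name them, so all labelled rats are used here. Of 13 hepatocyte markers measured, 12 exceeded the background level of the array in all 10 rats, with Fgb the exception. The values are log2 signals, in which a difference of 1 means a doubling. Apart from the comparison with background, a level is set only against other rats on the same probe set or gene list, never against another gene.

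Signal was compared with the background level of each array, the 95th percentile of 32 chemosensory receptor probe sets (genes of smell and pheromone receptors, not used by liver), which lay between 5.46 and 5.83 log2 units. Of the 10 genes, 8 exceeded it in every rat. Lox did so in 3 CVX-060 rats and 1 vehicle rat, and Loxl2 in no rat, so that the values of Loxl2 and most values of Lox lie where the array measures poorly.

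Col1a1, the alpha 1 chain of type I collagen, had log2 signals of 7.69, 7.36, 6.69, 7.12 and 8.18 in CVX-060 rats 1 to 5, against 6.29, 8.25, 7.46, 7.44 and 6.61 in vehicle rats 1 to 5. The highest and the lowest of the 10 values were both in vehicle rats, rats 2 and 1, and the whole CVX-060 range lay inside the vehicle range. The mean was 7.41 ± 0.57 in CVX-060 rats and 7.21 ± 0.78 in vehicle rats (SD, n = 5 each), a difference of 0.20 (SE 0.38, 95% interval -0.64 to 1.03, exact permutation p = 0.675), which was -0.033 without vehicle rat 1. Col1a2, the partner chain of the same triple helix, had 8.70, 8.67, 7.71, 8.27 and 9.17 in CVX-060 rats, against 7.59, 8.91, 8.62, 8.45 and 7.55 in vehicle rats. Vehicle rats 1 and 5 and CVX-060 rat 3 were the low rats and the groups overlapped. The difference in mean was 0.28 (SE 0.33, 95% interval -0.44 to 1.0, exact permutation p = 0.468).

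Promoter windows of 300 bases, 250 before and 50 after the annotated start, were found in RefSeq (build GRCr8) for 6 of the 10 genes (Col1a2, Col5a1, Col5a2, Loxl1, Serpinh1 and Sparc). The window of Col1a2 is shown because Col1a2 had the highest mean correlation with the other 9 genes (0.83). It lies at chr4:33518307-33518606 on the plus strand, and capitals mark the matches, on either strand, to CCAAT (here ATTGG, its reverse complement, from 221 bases before the start) and to TATAAA (from 170 bases before the start).
Col1a2: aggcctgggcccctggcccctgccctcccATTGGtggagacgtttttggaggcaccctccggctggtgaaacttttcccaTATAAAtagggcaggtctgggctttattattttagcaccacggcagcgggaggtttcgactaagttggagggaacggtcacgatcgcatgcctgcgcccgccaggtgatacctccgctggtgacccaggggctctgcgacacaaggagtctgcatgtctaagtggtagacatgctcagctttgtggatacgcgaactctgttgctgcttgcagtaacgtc
Among the promoters of all 33469 entries of the table, 37.5% held CCAAT and 14.2% held TATAAA on either strand, so these matches are common and are given as a description only.

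Col3a1, the single chain of type III collagen, had 12.08, 12.05, 11.50, 11.76 and 12.21 in CVX-060 rats, against 11.36, 11.99, 11.87, 12.06 and 11.48 in vehicle rats. As for type I collagen, vehicle rats 1 and 5 and CVX-060 rat 3 were the 3 lowest and the groups overlapped, with a difference of 0.17 (SE 0.17, 95% interval -0.21 to 0.55, exact permutation p = 0.381). Col5a1, the main chain of type V collagen, which is built into type I fibrils and limits their width, had 7.59, 7.54, 7.33, 6.99 and 7.51 in CVX-060 rats, against 7.13, 7.34, 7.30, 7.38 and 6.90 in vehicle rats. Here CVX-060 rats 1, 2 and 5 lay above every vehicle rat, while CVX-060 rat 4 was below all vehicle rats but one, and the difference was 0.19 (SE 0.13, 95% interval -0.11 to 0.48, exact permutation p = 0.214). Col5a2, its partner chain, had 7.98, 7.95, 7.67, 7.44 and 8.09 in CVX-060 rats, against 7.01, 8.24, 7.40, 7.82 and 7.03 in vehicle rats. Vehicle rat 2 was the highest of all, 3 vehicle rats lay below every CVX-060 rat, and the groups overlapped. The difference for Col5a2 was 0.33 (SE 0.24, 95% interval -0.20 to 0.85, exact permutation p = 0.254), the largest of the 10 in size.

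Serpinh1, also known as HSP47, is the chaperone of the endoplasmic reticulum that binds folded procollagen. It had 8.59, 8.71, 8.46, 8.61 and 9.32 in CVX-060 rats, against 8.32, 8.75, 8.27, 8.42 and 8.37 in vehicle rats. All 5 CVX-060 rats exceeded the vehicle mean, but vehicle rat 2 exceeded 4 of them, and CVX-060 rat 5 stood far above the rest of its group. The mean was 8.74 ± 0.34 in CVX-060 rats and 8.43 ± 0.19 in vehicle rats (SD, n = 5 each), a difference of 0.31 (SE 0.16, 95% interval -0.04 to 0.67) with the lowest exact permutation p of the 10 genes, 0.0873. The difference was 0.17 without CVX-060 rat 5 and 0.25 (95% interval 0.07 to 0.42) without both CVX-060 rat 5 and vehicle rat 2, with an adjusted p from limma over all genes of 0.99988 and 0.99986.

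The promoter window of Serpinh1, at chr1:163062927-163063226 on the minus strand, is shown because Serpinh1 shared least of its variation with the other genes and because it alone among the 6 windows held a heat shock element, searched as TTCNNGAANNTTC on both strands. Capitals mark this match, TTCCAGAAGTTTC, which begins 35 bases before the start, and a match to GGGCGG, the GC box, from 129 bases before the start.
Serpinh1: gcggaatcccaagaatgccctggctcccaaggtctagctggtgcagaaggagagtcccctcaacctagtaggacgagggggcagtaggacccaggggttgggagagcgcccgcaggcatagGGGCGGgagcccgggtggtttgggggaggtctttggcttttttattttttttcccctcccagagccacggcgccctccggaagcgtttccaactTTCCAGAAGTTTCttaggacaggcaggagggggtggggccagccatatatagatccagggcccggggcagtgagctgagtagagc
The heat shock element was present in 0.798% of all promoters of the table, and GGGCGG in 33.1%. Col5a1 held GGGCGG too, and none of the 4 motifs searched was found in the windows of Col5a2, Loxl1 or Sparc. A match is not evidence that a factor binds there. Of 7 heat shock genes measured, a list chosen after the values were seen, 5 were higher and 2 lower in CVX-060 rats with none past the test. Hspb1, a small heat shock protein, differed by 0.47, Dnajb1, a co-chaperone, by -0.16 and Hspd1, a mitochondrial chaperonin, by 0.09.

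Sparc, a matricellular glycoprotein that binds fibrillar collagen, had 8.01, 7.94, 7.36, 7.59 and 8.16 in CVX-060 rats, against 7.41, 7.93, 7.68, 8.04 and 7.34 in vehicle rats. CVX-060 rat 3 and vehicle rats 1 and 5 were again the 3 lowest, and the difference was 0.13 (SE 0.18, 95% interval -0.28 to 0.53, exact permutation p = 0.540).

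Lox and Loxl1 varied most between rats of the 10 genes, and Loxl2 was among the least variable. Lox, the founding member of the family, had 6.23, 6.01, 4.95, 5.75 and 6.43 in CVX-060 rats, against 5.06, 7.80, 5.68, 5.36 and 4.76 in vehicle rats. Vehicle rat 2 stood above all other rats and the remaining 4 vehicle rats lay below 4 of the 5 CVX-060 rats. No fold between the extremes is given, as the low values are below background. The difference was 0.14 (SE 0.52, 95% interval -1.02 to 1.30, exact permutation p = 0.857) with all rats. It was 0.66 without vehicle rat 2, where the adjusted p from limma was 0.910 or more for every gene, and -0.10 without vehicle rat 5 and -0.026 without vehicle rat 1. Loxl1, which crosslinks elastin as well as collagen, had 7.58, 7.31, 6.89, 6.82 and 8.04 in CVX-060 rats, against 6.65, 8.83, 7.54, 7.75 and 6.03 in vehicle rats. The vehicle rats held both ends of the range, 6.93-fold apart, and the difference was -0.03 (SE 0.47, 95% interval -1.06 to 1.0, exact permutation p = 0.968). Its sign turned when any of CVX-060 rats 3 and 4 and vehicle rats 2, 3 and 4 was left out, and the difference was 0.33 without vehicle rat 2. Loxl2, known for crosslinking collagen IV of basement membranes, had 5.39, 5.42, 4.88, 4.84 and 5.17 in CVX-060 rats, against 4.96, 5.17, 5.31, 5.06 and 4.75 in vehicle rats. All these values were below the background level, and their difference was 0.09 (SE 0.14, 95% interval -0.23 to 0.41, exact permutation p = 0.571).

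**Figure D1:**
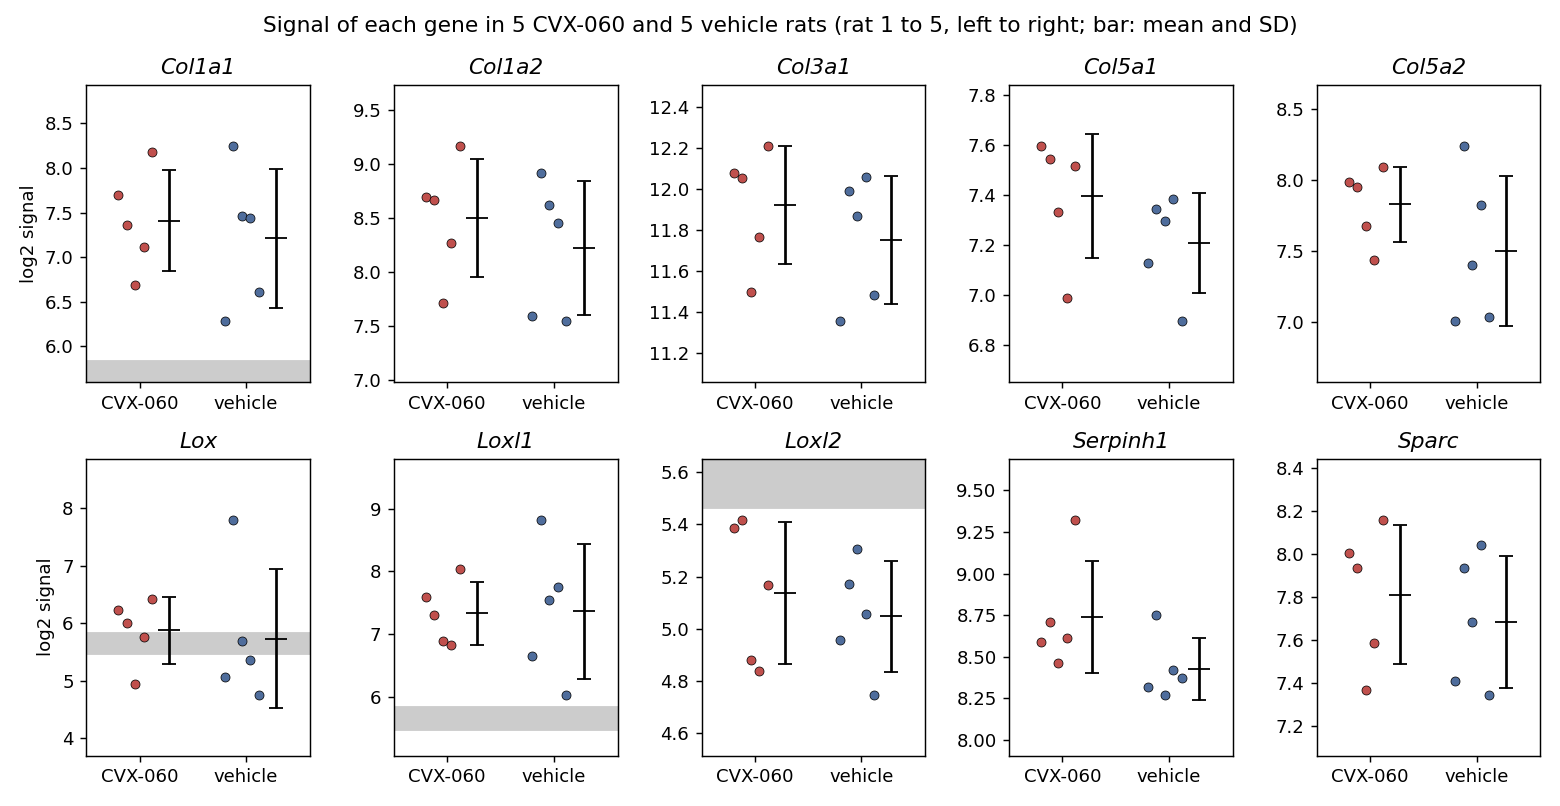
Log2 signal (vertical axis, a scale of its own in each panel) of the 10 genes in the 5 CVX-060 rats on the left and the 5 vehicle rats on the right; bars are the mean and SD, and the grey band is the range of the background level over the arrays, 5.46 to 5.83. The groups overlap for every gene, and vehicle rat 2 is the highest rat for Lox at 7.80 and for Loxl1 at 8.83.

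The question the design poses is whether CVX-060 changed these genes in cirrhotic liver. The mean was higher in CVX-060 rats for 9 of the 10 genes, Loxl1 being the exception, and the median difference was 0.18 log2 units. This median was 0.07 without vehicle rat 1, 0.08 without vehicle rat 5, 0.09 without CVX-060 rat 5, 0.32 without CVX-060 rat 3 and 0.36 without vehicle rat 2. The genes are not independent, as they moved together between rats, and over all genes the mean was higher in CVX-060 rats for 52.6%, with a median difference of 0.01. None of the 10 passed an adjusted p of 0.05 in limma, nor did any of the 14217 genes (0% called, lowest adjusted p 0.99997). At an unadjusted p under 0.05, 0 of the 10 genes and 2.44% of all genes (347) were found. The groups overlapped for all 10 genes, where 0.485% of all genes (69) had groups that did not overlap. With 5 rats against 5 the smallest exact p is 0.0079, and the lowest among the 10 genes was 0.0873. The 95% intervals, which all include 0, reach 1.03 for Col1a1, 1.0 for Col1a2 and 0.55 for Col3a1 on the upper side and -0.64, -0.44 and -0.21 on the lower side. Changes between these bounds are not excluded with 5 rats a group.

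**Figure D2:**
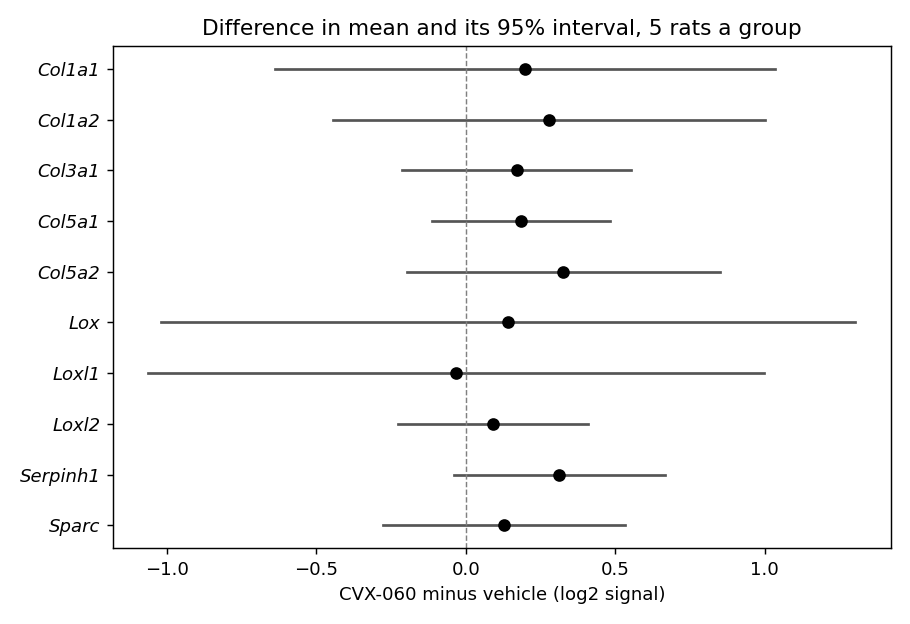
CVX-060 minus vehicle difference of the mean signals, on the log2 scale, for each gene (points) with its 95% interval (lines). Every interval includes 0; Serpinh1 comes closest, with a lower bound of -0.04, and Lox has the widest, from -1.02 to 1.30.

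Other probe sets with a single symbol were present for 8 of the 10 genes, all but Col3a1 and Loxl1. They gave differences of 0.11 for Col1a1, 0.10 for Col1a2, 0.07 for Col5a1, 0.25 for Col5a2, 0.10 for Serpinh1 and 0.01 for Sparc, all in the direction of the chosen probe sets but smaller. Lox and Loxl2 turned sign, with -0.02 and -0.06, on probe sets that were below background in all rats, as was the other probe set of Serpinh1. Over the 10 rats the 2 probe sets of a gene correlated at 0.94 to 0.99 for Col1a1, Col1a2, Col5a1, Col5a2 and Lox. For Sparc r was 0.57, for Serpinh1 0.52 and for Loxl2 0.46, so that the rat order of these 3 genes depended on the probe set.

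The spread between rats was large for most of these genes. Over the 10 rats the SD was 0.89 for Lox, 0.79 for Loxl1, 0.65 for Col1a1, 0.57 for Col1a2 and 0.43 for Col5a2, which placed these 5 at percentiles 90.6 to 98.8 of the SDs of all genes. The SD was 0.31 for Serpinh1 and Sparc and 0.30 for Col3a1, at percentiles 78.3 to 79.7, and 0.23 for Col5a1 and Loxl2, at percentiles 66.9 and 67.1. All 10 exceeded the median SD of all genes, 0.18. Each probe set was chosen for its high variance, and 8 of the 10 genes had another one, against 4525 of all 14217 genes. This choice raises the SDs and percentiles of the 10 genes. The other probe sets had SDs of 0.13 for Col5a1, 0.12 for Loxl2 and 0.09 for Serpinh1, below this median, and 0.31 to 0.54 for Col1a1, Col1a2, Col5a2, Lox and Sparc. The SD was larger in vehicle rats for 6 of the 10 genes, against 48.2% of all genes. In linear signal, the highest rat had 3.89-fold the lowest for Col1a1, 3.08-fold for Col1a2, 2.34-fold for Col5a2, 2.07-fold for Serpinh1, 1.80-fold for Col3a1 and 1.76-fold for Sparc.

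The same rats were high or low across the genes. Averaged over the 10 genes after each was scaled to a mean of 0 and an SD of 1 over the rats, the z-score was 0.69, 0.56, -0.72, -0.48 and 1.16 in CVX-060 rats 1 to 5, against -1.11, 1.0, 0.00, 0.21 and -1.32 in vehicle rats 1 to 5. Each group thus held rats at both ends. CVX-060 rats 1 and 5 and vehicle rat 2 were above the mean of all rats for all 10 genes, and vehicle rats 1 and 5 were below it for all 10. CVX-060 rat 5 was among the 3 highest for 9 genes, and vehicle rat 5 was among the 3 lowest for all 10 and the lowest for 6.

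Vehicle rat 2 had a profile of its own. It was the highest rat for Col1a1, Col5a2, Lox and Loxl1, with Lox 2.0 and Loxl1 1.48 log2 units above the mean of the 10 rats, but only 0.15 above it for Col3a1 and 0.04 for Col5a1. After subtraction of Col1a1, Lox in this rat was 1.06 above the average over rats, where the other 9 rats lay between -0.58 and 0.28. CVX-060 rat 5, with a comparable mean z-score, was the highest for Col1a2, Col3a1, Serpinh1 and Sparc, with Serpinh1 0.74 above the mean.

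**Figure D3:**
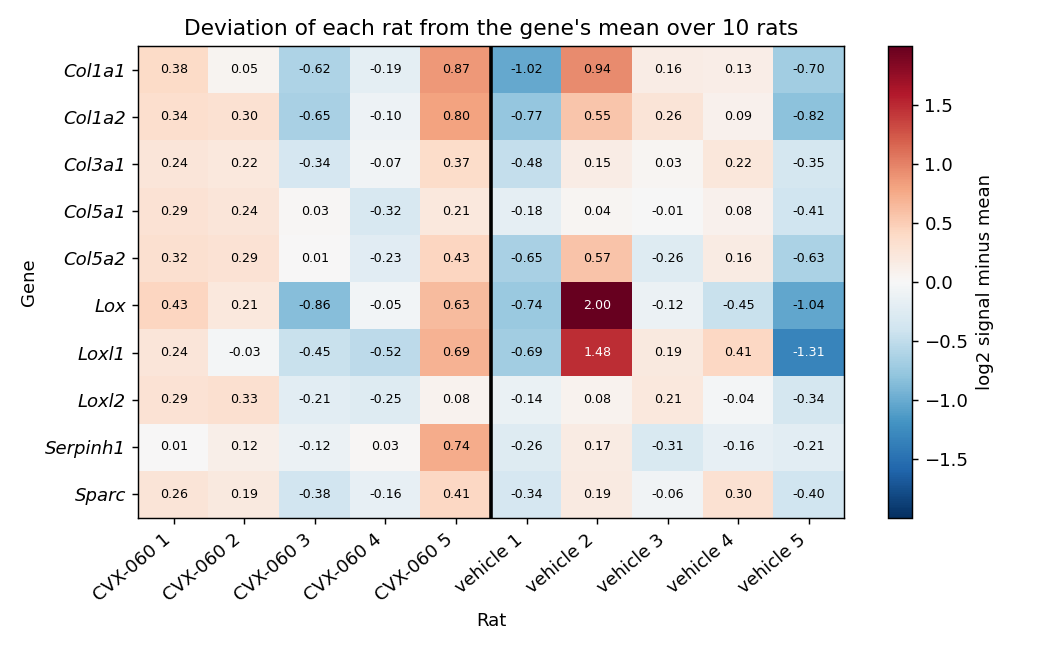
Deviation of each rat (columns, CVX-060 left of the line and vehicle right of it) from the mean of the 10 rats for each gene (rows), in log2 signal. Columns tend to keep 1 colour; the largest deviations are Lox at 2.0 and Loxl1 at 1.48 in vehicle rat 2.

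The co-variation was then measured. Over the 10 rats all 45 pairs of the genes had a positive Pearson correlation (r), with a mean of 0.74 and a range of 0.28 to 0.97, and 18 pairs exceeded 0.8. Over all genes the mean r of a pair was 0.00. Each pair shares the arrays and the RNA samples, and vehicle rat 2 and CVX-060 rat 5, which stood apart over all genes, were above the mean for all 10. Without them the mean was still 0.74 (0.20 to 0.96, 45 of 45 positive), and after subtraction of the group means it was 0.74 as well. Sparc and Col3a1 were the closest pair (0.97), followed by Col1a1 and Col1a2 (0.96). With the brightest probe set of each gene, which is another one for Sparc, Sparc and Col3a1 had r = 0.55, Col1a1 and Col1a2 were the closest pair (0.91), and the mean over the pairs was 0.70. Serpinh1 and Loxl2 were the least close (0.28). The mean r with the other 9 genes was highest for Col1a2 (0.83), Col1a1 (0.81), Col3a1 and Sparc (0.80 each) and lowest for Serpinh1 (0.58), for which it was 0.46 without the 2 rats.

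For Col1a1 as the reference chain, the relation with each of the other 9 genes was tested by permuting the pairing of rats 100000 times, with Benjamini-Hochberg adjustment over the 9 relations, for Pearson's r and Spearman's rho. Col1a2 had r = 0.96 (permutation p = 2e-05, adjusted 0.00018) and rho = 0.94 (permutation p = 0.00021, adjusted 0.000945). Loxl1 had r = 0.90 (permutation p = 0.00015, adjusted 0.000675) and rho = 0.94 (permutation p = 0.00019, adjusted 0.000945). Lox followed with r = 0.87 (permutation p = 0.00041, adjusted 0.000922) and rho = 0.87 (permutation p = 0.00201, adjusted 0.00589), so that the crosslinking enzymes Lox and Loxl1 tracked type I collagen between rats although Lox was near background. Col3a1 had r = 0.90 (permutation p = 0.00036, adjusted 0.000922) and rho = 0.82 (permutation p = 0.00579, adjusted 0.0104). Sparc had r = 0.88 (permutation p = 0.0009, adjusted 0.00162; 0.69 with its brighter probe set) and rho = 0.76 (permutation p = 0.0151, adjusted 0.0226). Col5a2 had r = 0.87 (permutation p = 0.00142, adjusted 0.00213) and rho = 0.85 (permutation p = 0.00262, adjusted 0.00589).

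Type V alpha 1 chain, Loxl2 and Serpinh1 were less close to Col1a1. Col5a1 had r = 0.63 (permutation p = 0.0520, adjusted 0.0579) and rho = 0.64 (permutation p = 0.0553, adjusted 0.0622), and Loxl2 had r = 0.62 (permutation p = 0.0579, adjusted 0.0579) and rho = 0.64 (permutation p = 0.0539, adjusted 0.0622), neither past 0.05. Serpinh1 had r = 0.69 (permutation p = 0.0196, adjusted 0.0253) but rho = 0.58 (permutation p = 0.0861, adjusted 0.0861). Vehicle rats 2 and 1 were farthest from the median of Col1a1, and without them r was 0.97 for Col1a2, 0.94 for Col3a1, 0.92 for Sparc, 0.90 for Lox and Loxl1, 0.74 for Col5a2, 0.70 for Col5a1, 0.69 for Loxl2 and 0.68 for Serpinh1. The adjusted exact permutation p was then 0.0537 for Col5a2 and 0.0616 for Serpinh1 with 8 rats in place of 10, so that neither passed 0.05. Without CVX-060 rat 5 and vehicle rat 2, r with Serpinh1 was 0.42 (exact permutation p = 0.301). The slope on Col1a1 also differed between genes, which was not tested. A log2 unit of Col1a1 went with 1.20 units of Lox, 1.10 of Loxl1, 0.84 of Col1a2, 0.57 of Col5a2, 0.41 of Col3a1 and of Sparc, 0.32 of Serpinh1 and 0.23 of Col5a1 and of Loxl2. Without CVX-060 rat 5 and vehicle rat 2 these slopes were 0.88 for Lox, 0.97 for Loxl1, 0.96 for Col1a2 and 0.60 for Col5a2. They were then 0.56 for Col3a1, 0.52 for Sparc, 0.39 for Loxl2, 0.33 for Col5a1 and 0.13 for Serpinh1.

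The genes most like the 10 in their rat-to-rat pattern were found by the Pearson r of each of the other 14207 genes with the mean z-score over the 10 rats, as a description without a test. The 10 highest were Fstl1 (0.98), a secreted follistatin-like glycoprotein, Dpysl2 (0.97), a cytoskeletal regulator, Col6a3 (0.97), a chain of microfibrillar collagen VI, Nid1 (0.97), which links laminin to collagen IV, Mmp2 (0.96), gelatinase A, Pxdn (0.96), the peroxidase that crosslinks collagen IV, Calcb (0.96), Fbn1 (0.96), the microfibril protein fibrillin 1, Col4a1 (0.96), a basement membrane collagen, and Ap1s2 (0.95), a clathrin adaptor subunit. Calcb was below background in all rats, and the other 9 exceeded it in every rat. Without CVX-060 rat 5 and vehicle rat 2 these 10 had r of 0.93 to 0.98. The 5 lowest were Ptgr2 (-0.97), Mrpl30 (-0.94), Lemd2 (-0.94), Six3 (-0.93) and H2al2l (-0.93), of which Mrpl30, a mitochondrial ribosomal protein gene, alone exceeded background in every rat. In all, 91 genes had r above 0.9 and 19 had r below -0.9, while 7.42% exceeded 0.7 and 5.53% lay below -0.7. The mean z-score itself had r = 0.78 with the first principal component of all genes.

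Genes that modify and export procollagen did not follow as a group. Of 18 measured, 12 were higher and 6 lower in CVX-060 rats, none past the test. For this and each further list, the z-scores of its genes were averaged in each rat, every measured gene counting equally. The r of this average with the mean z-score of the 10 genes was 0.06 here (-0.09 without CVX-060 rat 5 and vehicle rat 2). Within the list, r was 0.81 for Plod2, the lysyl hydroxylase of collagen telopeptides, 0.84 for P3h3, a prolyl 3-hydroxylase family member, and 0.85 for Fkbp10, a procollagen chaperone. It was 0.18 for P4hb, the protein disulfide isomerase subunit of prolyl 4-hydroxylase, and -0.53 for Mia3, a procollagen export receptor. Fkbp10 exceeded background in 3 of the 10 rats, Plod2 in 7 and P3h3 in 8, while P4hb and Mia3 did in all. Plod2 averaged 6.51 ± 0.59 in CVX-060 rats and 6.48 ± 1.0 in vehicle rats (SD, n = 5 each). Among 7 measured genes of procollagen trimming and other crosslinking, 5 were higher and 2 lower and none passed, and r of their mean z-score was 0.79 (0.68 without these 2 rats). Pcolce, an enhancer of procollagen C-proteinase, had r = 0.82 and Efemp2, a fibulin needed for lysyl oxidase action on elastin, 0.84, whereas Bmp1, the C-proteinase itself, had -0.12 (0.20 without the 2 rats), Fn1, fibronectin, -0.44 and Tgm2, a transglutaminase, 0.57.

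Other collagens followed in part. For 17 non-fibrillar collagens, 13 were higher and 4 lower in CVX-060 rats, none past the test, with a median difference of 0.07. The r of their mean z-score was 0.83 (0.78 without CVX-060 rat 5 and vehicle rat 2). The median r of these genes taken singly was 0.28, and 7 of the 17 exceeded 0.7, among them Col6a1 with 0.91. Col7a1 (0.16) and Col13a1 (0.41) had the smallest unadjusted limma p of the list, 0.0489 and 0.0638, and r of -0.04 and 0.18 with the 10 genes, and Col7a1 was below background in all rats. Of 15 further fibrillar and fibril-associated collagens, 6 were higher and 9 lower, none passed and 11 were below background in every rat. The r of their mean z-score was -0.45 (0.17 without CVX-060 rat 5 and vehicle rat 2). Col12a1, which coats type I fibrils, had r = 0.82. For collagen breakdown and uptake, 9 of 12 genes were higher and 3 lower, none past the test, with r = 0.88 for their mean z-score (0.80 without these 2 rats). Timp2, an inhibitor of metalloproteinases, had r = 0.94, Ctsk, a collagen-degrading cathepsin, 0.85 and Mmp14, the membrane activator of Mmp2, 0.22. Fap, below background in all rats, had -0.78, and Ctsk exceeded background in 5 of the 10 rats. Singly, 6 of the 12 exceeded 0.7 (median 0.64), and 4 of the 12 were below background in every rat.

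The averaged markers of collagen-producing cells followed the 10 genes between rats, though not every marker did. The mean z-score of 15 stellate cell and myofibroblast markers had r = 0.83 (0.85 without CVX-060 rat 5 and vehicle rat 2), 9 being higher and 6 lower in CVX-060 rats with none past the test. Their mean level lay between 6.29 and 6.69 in CVX-060 rats, against 6.23 and 6.69 in vehicle rats. Of these markers, 8 exceeded background in every rat and 4 in none. Pdgfrb and Pdgfra, the receptors of platelet-derived growth factor, had r of 0.90 and 0.88, and Cygb, cytoglobin of stellate cells, 0.87, while Acta2, smooth muscle actin, had 0.55. Singly, 6 of the 15 exceeded 0.7 (median 0.55). Of 2 markers named after their values were seen, Lrat, the retinol-esterifying enzyme of stellate cells, had r = -0.29 and was above background in all rats, and Ngfr, a neurotrophin receptor, had -0.85 and was above it in none. Of 10 portal fibroblast markers, 6 were higher and 4 lower, none passed, and r was 0.80 (0.71 without CVX-060 rat 5 and vehicle rat 2), with their mean level between 6.03 and 6.35 in CVX-060 rats, against 5.97 and 6.36 in vehicle rats. Mfap4, a microfibril-associated protein, had r = 0.90, and Dpt, dermatopontin, -0.70 (-0.36 without the 2 rats). Singly, 3 of the 10 portal fibroblast markers exceeded 0.7 (median 0.44). Of these markers, 3 exceeded background in every rat and 4 in none. Of 10 TGF-beta ligands and targets, 5 were higher and 5 lower, none passed, and r was 0.96 (0.95 without the 2 rats). The list also holds Tgfbr1, the type I receptor, which had r = 0.91. Ccn2, a matricellular protein induced by TGF-beta, had r = 0.88 and Ltbp2, a matrix protein of the latent TGF-beta binding family, 0.78. Singly, 4 of the 10 exceeded 0.7 (median 0.66), and Tgfbi, a TGF-beta-induced matrix protein, had -0.15 and Smad7, an inhibitor of the pathway, 0.06, both named after their values were seen. Ccn2 ranged between 9.17 and 12.04 over the rats. The part of cell numbers in the spread of the 10 genes was not tested.

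Marker lists of other cell types differed in their r with the 10 genes. The mean z-score of 8 cholangiocyte markers had r = 0.85, and 0.74 without CVX-060 rat 5 and vehicle rat 2 (5 higher, 3 lower, none past the test). Their mean level lay between 4.96 and 5.99 in CVX-060 rats, against 4.85 and 5.92 in vehicle rats. Epcam had r = 0.82 and Krt19 0.74, with Krt19 above background in 5 of the 10 rats. Of these markers, 2 exceeded background in every rat, Epcam and Spp1, and 4 in none. Spp1, named after its values were seen, had r = 0.22. For 13 lymphocyte markers r was 0.63 (9 higher, 4 lower, none past the test), and 0.56 without the 2 rats, but 9 of them were below background in every rat and the median r of single genes was 0.20. Ptprc, the CD45 antigen of all leukocytes, had 0.88, while Prf1 and Gzmb, products of cytotoxic lymphocytes, had -0.08 and -0.40. For 10 mast cell genes, a list chosen after the values were seen, r was 0.92, and 0.87 without the 2 rats (8 higher, 2 lower, none past the test), with Cpa3 and Mcpt10 at 0.95 and Cma1 at 0.91. Singly, 6 of the 10 exceeded 0.7 (median 0.80), while Hdc had 0.49 (-0.58 without the 2 rats). Kit, named after its values were seen and below background in all rats, had -0.03. Cpa3 exceeded background in 6 of the 10 rats, Mcpt10 in 2 and Cma1 in 1. The mast cell list averaged between 4.74 and 5.55 in CVX-060 rats, against 4.62 and 5.94 in vehicle rats, and 4 of its genes were below background in all rats and none was above it in all. For 13 hepatocyte markers r was 0.49 with all rats and 0.85 without CVX-060 rat 5 and vehicle rat 2 (7 higher, 6 lower, none past the test). Singly, 2 of the 13 exceeded 0.7 with all rats (median 0.14), Ahsg having 0.74 and Serpina1, named after its values were seen, -0.68. Their mean level varied little, between 12.42 and 12.54 in CVX-060 rats, against 12.42 and 12.51 in vehicle rats.

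Sinusoidal endothelial cells, which like other endothelia carry Tie2, line the vessels beside the stellate cells. Of 13 markers listed for them, 10 were measured. All 10 had a higher mean in CVX-060 rats, against 52.6% of all genes, with a median difference of 0.31 and the lowest, 0.01, for Cd36. These markers were measured in the same livers and are not 10 independent observations. Their list was chosen with earlier results of these data known, so its counts are given as a description only. None passed the adjusted test, and 2 of the 10, against 2.44% of all genes, had an unadjusted limma p under 0.05. Lyve1 differed by 0.44, Mrc1 by 0.40 and Stab2 by 0.35, and r of the list with the 10 genes was 0.40 (0.37 without CVX-060 rat 5 and vehicle rat 2). Of 10 macrophage markers, 9 were higher with a median of 0.24, none past the test, and r was 0.55 (0.22 without CVX-060 rat 5 and vehicle rat 2), with C1qc at 0.32 and Adgre1 at 0.24 in difference. Of 5 mesothelial markers, 2 were higher and 3 lower, none passed, and r was 0.41 (0.22 without the 2 rats). Gpm6a averaged 6.01 ± 1.76 in CVX-060 rats and 7.89 ± 0.64 in vehicle rats (SD, n = 5 each, exact permutation p = 0.0794), and was below background in 2 rats. For 3 red blood cell markers r was -0.04, and 0.26 without the 2 rats (1 higher, 2 lower, none past the test), and for the 7 heat shock genes -0.17, and -0.27 without them. The points of each such r share the same 10 livers and arrays.

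**Figure D4:**
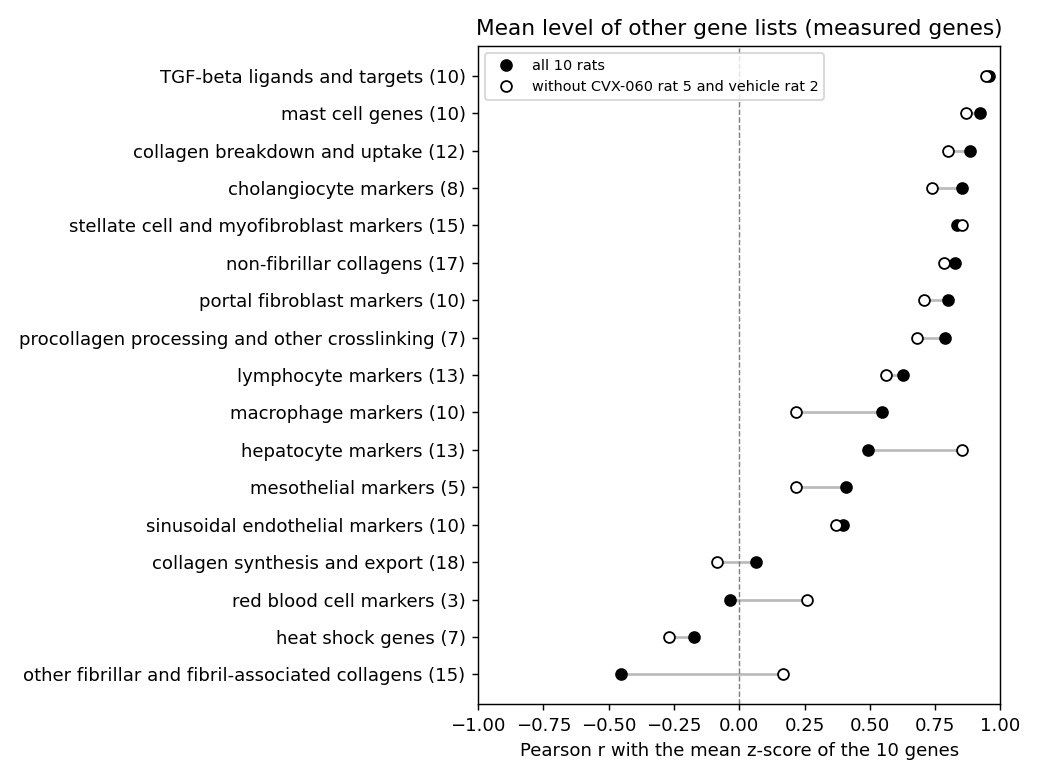
Pearson r over the rats between the mean z-score of each gene list (number of measured genes in brackets) and the mean z-score of the 10 genes, for all 10 rats (filled) and without CVX-060 rat 5 and vehicle rat 2 (open). The mean level in the title is this mean z-score of the list. The list of TGF-beta ligands and targets, which also holds the receptor Tgfbr1, is the highest at 0.96, and collagen synthesis and export lies at 0.06.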

How the data were processed

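Total RNA of each liver was hybridized to its own Affymetrix rat genome array. The authors deposited log2 signals, 1 per probe set and array, that were already normalized between arrays. The tools in the submitters' processing notes are R 3.4.0, limma 3.38.2 and affy 1.56.0, and the background correction and summary method are not given in the sources used here. No further normalization was applied (array medians 5.52 to 5.57), and the number of arrays limits the precision.

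Of 31099 probe sets, 57 controls, 436 with several symbols and 9780 without one were left out, and 20826 probe sets of 14217 genes remained. Each gene was represented by its probe set of highest variance, and 4525 genes had more than 1. Groups were compared with lmFit and eBayes in limma 3.58.1 (R 4.3.3), adjusted by Benjamini-Hochberg over all genes. For single genes the exact two-sided permutation test covered 252 splits. The remaining steps ran in Python 3.11.15 (scipy 1.17.1, numpy 2.4.6, matplotlib 3.10.9, pandas 2.3.3), and simulated data were used to test the limma and permutation steps. Genes other than the 10 were named by their r with the mean z-score (10 highest, 5 lowest) or, within each list, from the up to 3 smallest unadjusted p and the up to 3 highest r. The 10 genes and the lists were chosen with earlier results of these data known, and the mast cell and heat shock lists after their values were seen. The fit was repeated with the brightest probe set per gene, every probe set, genes above the 40th percentile of mean level, a second quantile normalization, array medians at 0, array weights, a variance prior with trend, a replicate block, the Bmal1 signal as a covariate and rats left out. Replicates are separate rats per the labels. The study's methods keep 2 rats of each group after quality control without naming them, so all 10 were analysed. Symbols come from the platform's annotation, and promoter sequences from RefSeq (GRCr8).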

Additional observations from a re-analysis of the deposited data

Results flagged for a closer look

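Within each group of 5 rats, a value was singled out when its gap to the nearest rat exceeded 0.71 of the group's range (Dixon's criterion). This was checked for 81 probe sets in both groups, 162 groups in all, of which 8 were singled out. Chance gives about 1 in 20. Serpinh1 was 9.32 in CVX-060 rat 5, against 8.46 to 8.71 in the other CVX-060 rats, and this rat carried part of the difference between the groups, as given above. The other, dim probe set of Serpinh1 was 3.63 in vehicle rat 3, against 3.78 to 3.80 in the rest of that group. Among related genes, Pcolce was highest in CVX-060 rat 5 at 8.0 and Pdgfrb lowest in CVX-060 rat 3 at 6.17. In CVX-060 rat 4, Col7a1 was the highest of the group at 5.28 and Tgm2 the lowest at 9.29. In the vehicle group, P4hb was lowest in rat 1 at 12.83 and Lyve1 lowest in rat 3 at 9.56.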

How the results depend on the processing

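No gene passed the adjusted test under any alternative (lowest adjusted p of the 10 genes 0.854). Of 198 refits of the 10 genes, 6 gave an unadjusted limma p under 0.05: 4 of Serpinh1, 1 of Col5a1 and 1 of Col5a2. In the settings of these 6 calls, 377 to 713 of all 14217 genes had an unadjusted limma p under 0.05. The refits share rats, so the 4 calls of Serpinh1 are not independent. The number of the 10 genes higher in CVX-060 rats was 7 without vehicle rat 1 and 10 with array weights, and the median difference was 0.07 without vehicle rat 1 and 0.36 without vehicle rat 2. The sign turned for Loxl1 with array weights (0.12), without CVX-060 rat 5 and vehicle rat 2 (0.16) and, with each rat left out in turn, between -0.36 and 0.33. It turned for Lox with the Bmal1 covariate (-0.020) and between -0.10 and 0.66 with each rat left out, and for Col1a1 between -0.033 and 0.46. The cause was not tested. The r of Col1a1 with Serpinh1 lost its call with another quantile normalization (0.63) and without both rats (0.42). It ranged from 0.62 to 0.77 with each rat left out and lost its call without CVX-060 rat 5 (adjusted permutation p 0.0895), vehicle rat 1 (0.0637) or vehicle rat 5 (0.0648). That with Col5a1 ranged from 0.55 to 0.70 and that with Loxl2 from 0.54 to 0.70, past the test without CVX-060 rat 3 or vehicle rat 2 for Col5a1 and without CVX-060 rat 2 for Loxl2. The replicate numbers did not pair the rats (r of same-numbered deviations -0.17 to 0.15, 0 of 5 closest to their own number). With the replicate number as a block, 0 genes passed, 389 had an unadjusted p under 0.05 and the median difference of the 10 genes was 0.18. Lox and Loxl2 are limited by signal near background.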
